A study of Mus musculus with 6 samples.

Results

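Rybp occupancy was examined at the promoters of the 9 core genes of the hedgehog pathway, the ligand genes Shh, Ihh and Dhh, the receptor gene Ptch1, the transducer gene Smo, the inhibitor gene Hhip and the transcription factor genes Gli1, Gli2 and Gli3. The genes were taken by name, and their probes were those annotated to them by symbol or accession on either of the 2 promoter arrays. Probes were present for 8 of the 9 genes, 262 in all. Gli2 had 0 probes under its symbol or accession and was not analysed here. The whole set covers 16906 genes, of which 16328 promoters had enough probes for a level. The cells were mouse embryonic stem (ES) cells of 3 genotypes, a constitutive Eed knockout (Eed-KO), a constitutive Dnmt1 knockout (Dnmt1-KO) and wild type (WT). Chromatin of every genotype was precipitated with the same anti-Rybp antibody (H-115, Santa Cruz), and precipitated (IP) DNA in Cy5 was hybridised with input DNA in Cy3. All cells grew in serum with the cytokine supplement ESGRO, on irradiated feeder fibroblasts or on gelatin, and which culture had feeders is not stated. The labels name no cell line or clone. Each genotype had 1 array of each design, so every promoter was measured on 1 array per genotype. There were no replicates, so the small number of arrays limits how precise any value is, and no p-values were calculated. Errors below are the standard deviation (SD) or standard error (SE) over the 6 probes of a window, which covers scatter between probes and no variation between cultures or hybridisations.

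Hedgehog ligands are secreted proteins that bind Ptch1 and so release its inhibition of the membrane protein Smo. Active Smo lets the Gli transcription factors act on target genes, among which are Gli1, Ptch1 and Hhip themselves, so that the pathway feeds back on its own receptor and on a decoy that binds the ligands. Hedgehog ligands pattern the limb, neural tube, skeleton and gonad, and many genes for such developmental signals lie in CpG-rich chromatin that Polycomb complexes hold silent in ES cells. Rybp belongs to variant forms of Polycomb repressive complex 1, Eed is required by the methyltransferase complex PRC2, and Dnmt1 copies DNA methylation at CpG onto new DNA strands. The comparison of each knockout with WT therefore asks how the antibody's enrichment at these promoters differed in cells without the Eed subunit or without the maintenance methyltransferase.

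The probes whose levels carry the results are printed here as they stand on the arrays, 5′ to 3′, with each CpG in capitals, since CpG is the site that Dnmt1 keeps methylated. The number after the gene is the position of the probe in bases from the annotated start, negative upstream and positive inside the gene. The coordinates are those of the Dnmt1-KO files, for which the sources used here name no genome build and no probe strand. The first 5 lines show Ihh upstream and inside the gene, the next 4 show both stretches of Shh, and the next 3 show both stretches of Ptch1. The remaining lines show the probe with the highest Dnmt1-KO level of each other gene.
Ihh -650, chr1:74885481-74885535: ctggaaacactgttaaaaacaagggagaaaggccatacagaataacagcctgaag
Ihh -445, chr1:74885281-74885325: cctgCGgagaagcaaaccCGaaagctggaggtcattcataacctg
Ihh 593, chr1:74884243-74884287: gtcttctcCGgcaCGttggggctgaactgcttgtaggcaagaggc
Ihh 714, chr1:74884122-74884166: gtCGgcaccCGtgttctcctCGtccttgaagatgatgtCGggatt
Ihh 880, chr1:74883956-74884000: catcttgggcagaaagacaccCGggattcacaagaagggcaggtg
Shh 544, chr5:28797306-28797356: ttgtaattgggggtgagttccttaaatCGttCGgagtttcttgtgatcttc
Shh 942, chr5:28796904-28796963: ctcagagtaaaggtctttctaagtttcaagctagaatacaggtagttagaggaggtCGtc
Shh 1780, chr5:28796073-28796117: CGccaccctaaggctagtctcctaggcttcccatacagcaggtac
Shh 2283, chr5:28795570-28795614: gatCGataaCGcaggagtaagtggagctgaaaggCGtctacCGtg
Ptch1 -3300, chr13:63578013-63578072: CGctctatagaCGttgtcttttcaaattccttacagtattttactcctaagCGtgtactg
Ptch1 -3134, chr13:63577847-63577906: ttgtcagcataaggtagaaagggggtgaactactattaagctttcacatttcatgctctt
Ptch1 662, chr13:63574053-63574107: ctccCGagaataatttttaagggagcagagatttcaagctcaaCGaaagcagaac
Dhh 220, chr15:98726332-98726376: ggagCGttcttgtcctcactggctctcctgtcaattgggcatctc
Smo 497, chr6:29685987-29686031: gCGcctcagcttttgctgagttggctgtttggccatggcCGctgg
Hhip 493, chr8:82953550-82953594: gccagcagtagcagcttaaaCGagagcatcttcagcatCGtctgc
Gli1 2305, chr10:126742198-126742249: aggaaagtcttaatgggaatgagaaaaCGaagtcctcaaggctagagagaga
Gli3 -299, chr13:15254286-15254335: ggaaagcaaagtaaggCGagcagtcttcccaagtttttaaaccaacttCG

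Probe levels are log2 of IP over input after subtraction of the array's median, so that 0 is the middle of the array and 1 is 2-fold enrichment. Promoter levels average 6 neighbouring probes within 3000 bases, called the window, which is the run whose mean over the 3 genotypes was highest. Dnmt1-KO, with the widest range of values, had the most weight in that choice. A window with a level of at least 1 was called bound. Among windows bound in the knockout or in WT, a difference of at least 1 was called higher or lower. The windows of the 8 genes were not shared with any other gene. The Dnmt1-KO arrays differed from the others in ways that bear on every Dnmt1-KO value. Their probe levels had SDs of 0.957 and 0.912, against 0.449 and 0.468 in Eed-KO and 0.413 and 0.417 in WT. They were read on scanner model G2505C, and the other 4 arrays on G2505B. Loss of Dnmt1 and the scan batch cannot be told apart. For that reason Dnmt1-KO differences are given a second time after the arrays of a design were set to a common spread, the mean of their median absolute deviations, with the same windows, which is called rescaled below.

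At the hedgehog genes, Rybp enrichment was moderate in Eed-KO and WT and higher in Dnmt1-KO. In Eed-KO, 2 of 8 promoters were bound, Shh and Ihh, against a background of 5.76% of all promoters. In Dnmt1-KO all 8 were bound, where 46.1% of all promoters were. In WT 1 of 8 was bound, Shh, against 5.15% of all promoters. The median level of the 8 genes was 0.80 in Eed-KO, 1.83 in Dnmt1-KO and 0.75 in WT, beside medians over all promoters of 0.21 in Eed-KO, 0.92 in Dnmt1-KO and 0.27 in WT. Between Eed-KO and WT, 2 of the 8 genes were bound in either, Shh and Ihh, and only these could be called. Of them 0 were called higher and 0 lower, where 0.0880% and 0% of promoters bound in either were. Between Dnmt1-KO and WT 5 of 8 were called higher, Ihh, Ptch1, Gli3, Hhip and Gli1, and 0 lower. The same call was made at 53.9% of promoters bound in either for higher and at 0.0265% for lower, so the count over the 8 genes lies near the background. Rescaling removed most of the general shift, since the median Dnmt1-KO difference of all promoters was 0.61 as measured and 0.14 rescaled. After rescaling 6 of 8 were bound in Eed-KO, 7 in Dnmt1-KO and 5 in WT, against 11.6%, 21.7% and 14.8% of all promoters. In Dnmt1-KO against WT 2 of the 8 were then called higher, Ihh and Ptch1, against 4.57% of promoters, and 0 lower, against 1.84%. In Eed-KO against WT 7 of the 8 were bound in either after rescaling. Of these 0 were called higher and 0 lower, against 0.112% and 0.411% of such promoters. Keeping the windows after rescaling was a choice made after seeing the data. In the planned form, windows were chosen again after rescaling, and 0 of the 8 were called in Dnmt1-KO against WT. Of 4113 promoters bound in either, 144 were then called higher and 112 lower. Ihh differed by 0.67 and Ptch1 by -0.75 in that form. When windows were chosen on Eed-KO and WT alone, 7 of the 8 were bound in Dnmt1-KO or WT. Of these 2 were called higher in Dnmt1-KO, Gli3 by 1.70 and Ihh by 1.18, against 38.9% of such promoters. Ptch1 differed by 0.11. With normexp background correction 7 of the 8 were called higher in Dnmt1-KO, against 55.1% of promoters, since Dhh at 1.44 and Shh at 1.19 then passed the size called.

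**Figure D1:**
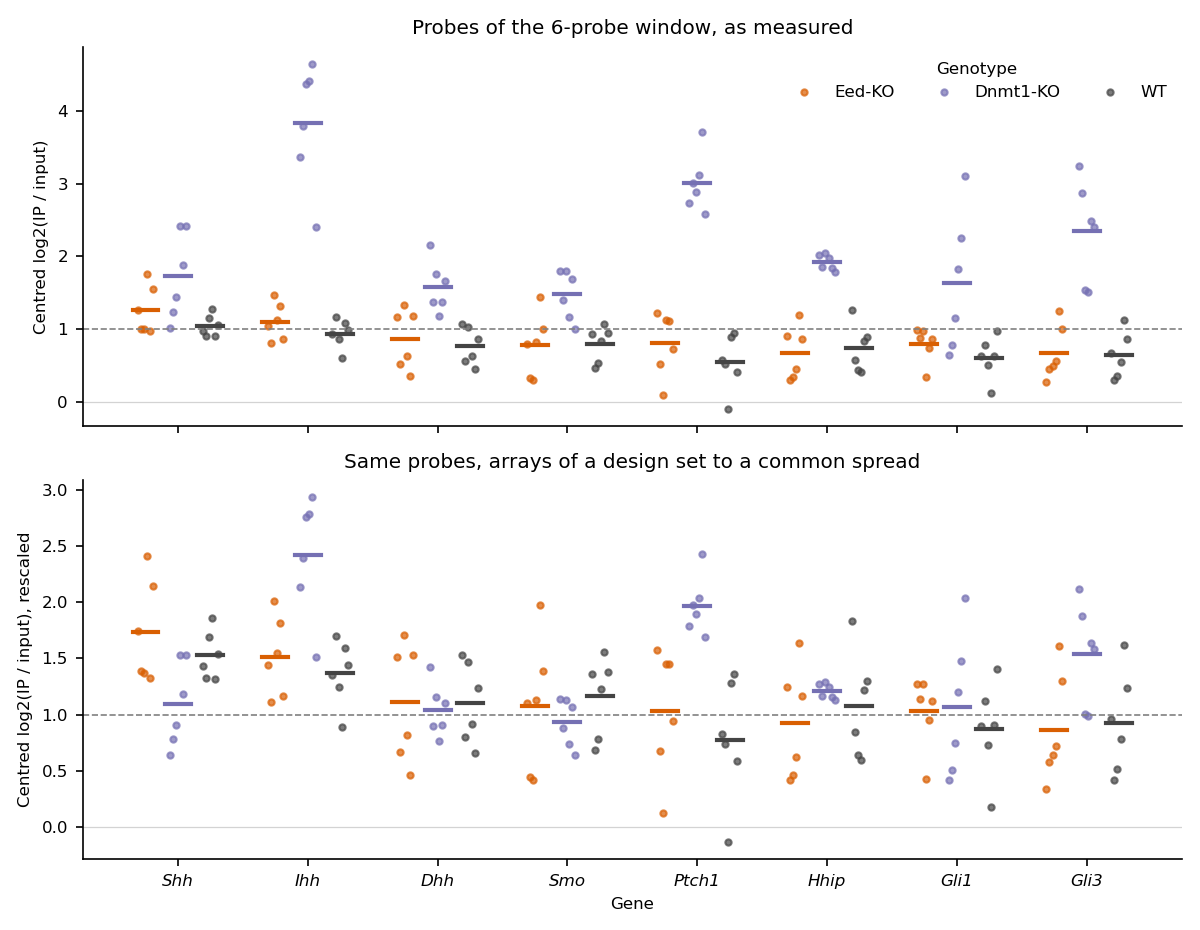
Centred log2 IP over input at the 6 window probes of each hedgehog gene (points, 1 probe each) and their mean (bars) in Eed-KO, Dnmt1-KO and WT, as measured (top) and with the arrays of a design set to a common spread (bottom). The dashed line marks the bound level of 1. Ihh and Ptch1 stand highest in Dnmt1-KO in both panels, Ihh at a mean of at least 3.83 as measured and at least 2.42 rescaled (1 probe saturated), and Ptch1 at 3.01 and 1.97.

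Shh encodes the ligand that patterns the limb and the floor plate. Its window lay on chromosome 5 from 28795570 to 28796807, from 1092 to 2283 bases inside the gene. The level was 1.26 ± 0.33 in Eed-KO, 1.74 ± 0.60 in Dnmt1-KO and 1.05 ± 0.15 in WT (SD over 6 probes). Among the 8 genes Shh had the highest level in Eed-KO and in WT, at percentiles 97.6 and 95.8 of all promoters, and it stood at percentile 83.8 in Dnmt1-KO. Eed-KO exceeded WT by 0.22 ± 0.11 (SE), with 5 of 6 probes higher. Dnmt1-KO exceeded WT by 0.69 ± 0.22, with 6 of 6 probes higher, as at 43.4% of all promoters, and after rescaling the difference was -0.43 ± 0.13, with 0 of 6 higher. At the 6 probes nearest the start it was -0.26 as measured. The direction at Shh thus depended on the scaling and on the position.

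The window hides a division along the Shh gene. The 4 probes from 313 to 942 averaged 1.38 in Eed-KO, 0.39 in Dnmt1-KO and 1.14 in WT, and Dnmt1-KO was lower than WT at 4 of 4. The probe at 942, printed above, had the highest Shh level in Eed-KO and in WT, 2.32 in Eed-KO, 0.49 in Dnmt1-KO and 1.76 in WT. The probe at 544 had 1.91 in Eed-KO, 0.55 in Dnmt1-KO and 1.63 in WT. The maxima of Eed-KO and WT therefore fell on probes where Dnmt1-KO was near the middle of its array. Further in, the 3 probes from 1780 to 2283 averaged 1.43 in Eed-KO, 2.24 in Dnmt1-KO and 1.08 in WT, and Dnmt1-KO was higher at 3 of 3. Rescaled, the first stretch differed by -1.42 between Dnmt1-KO and WT, with 0 of 4 probes higher, and the second by -0.16, with 0 of 3 higher. These stretches, and those of the other genes below, were chosen after their values were seen, and their differences are descriptions.

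Ihh, whose ligand acts in growing cartilage, had the highest Dnmt1-KO level of the 8 genes. The Ihh window lay on chromosome 1 from 74883678 to 74884535, from 345 to 1158 bases inside the gene. The level was 1.11 ± 0.26 in Eed-KO, at least 3.83 ± 0.84 in Dnmt1-KO and 0.94 ± 0.20 in WT. The Dnmt1-KO value is a lower bound because the IP signal of the probe at 345 was saturated there. In Dnmt1-KO the Ihh window ranked 13 or higher among 16328 promoters, and in WT it ranked 1067. Eed-KO exceeded WT by 0.17 ± 0.15, with 4 of 6 probes higher. The Dnmt1-KO level exceeded that of WT by at least 2.89 ± 0.37, with 6 of 6 probes higher, which was rank 5 or higher among all promoters' differences, and rescaled by at least 1.05 ± 0.27, with 6 of 6 higher.

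The Ihh signal in Dnmt1-KO climbed over the start and was highest inside the gene. It was 1.33 at -229, 1.94 at 55 and 3.79 at 454, and the IP signal of the probes between, at 223 and 345, was saturated. Past its maximum at 880 it was 2.40 at 1158 and 1.47 at 1447, and it was again above 2 at 1907 and 2019, with 2.34 and 2.06. The 5 probes from 345 to 880 averaged 1.16 in Eed-KO, at least 4.12 in Dnmt1-KO and 0.93 in WT. Within them the probe at 880 was the highest measured, with 1.32 in Eed-KO, 4.64 in Dnmt1-KO and 1.09 in WT. Further upstream the order was the other way round, beyond the probe at -229. The 4 probes from -1024 to -445 averaged 1.28 in Eed-KO, 0.32 in Dnmt1-KO and 0.92 in WT, and Dnmt1-KO was lower than WT at 4 of 4. At -650 the levels were 1.41 in Eed-KO, -0.36 in Dnmt1-KO and 0.85 in WT. Enrichment in Eed-KO and WT was thus spread over both sides of the start, and that in Dnmt1-KO was highest inside the gene. The stretch inside the gene held 6.22 CpG per 100 bases of probe, and the upstream stretch held 1.82. CpG density did not differ in this way at every gene. At Shh it was 2.99 from 313 to 942 and 3.60 from 1780 to 2283. The upstream stretch and the window of Ptch1, described below, both held 3.11. At Gli3 it was 2.11 from -299 to -115, where Dnmt1-KO was highest, and 2.73 from 810 to 1024.

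Dhh, the ligand gene of the gonad and peripheral nerve, had a window on chromosome 15 from 98724333 to 98726078, from 520 to 2216 bases inside the gene. Its level was 0.87 ± 0.41 in Eed-KO, 1.59 ± 0.35 in Dnmt1-KO and 0.77 ± 0.25 in WT. Dhh was below the bound level in Eed-KO and in WT. Eed-KO differed from WT by 0.10 ± 0.07, with 3 of 6 probes higher. Dnmt1-KO exceeded WT by 0.82 ± 0.08, with 6 of 6 probes higher, and rescaled the difference was -0.06 ± 0.08, with 2 of 6 higher. The 9 probes from 70 to 2216 averaged 0.78 in Eed-KO, 1.70 in Dnmt1-KO and 0.58 in WT, without a single peak. The highest Dnmt1-KO probe, at 220, had 0.46 in Eed-KO, 2.22 in Dnmt1-KO and 0.29 in WT.

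Ptch1 encodes the ligand receptor and is itself a target of the pathway. The Ptch1 window lay on chromosome 13 from 63573887 to 63574610, from 154 to 833 bases inside the gene. The level was 0.80 ± 0.44 in Eed-KO, 3.01 ± 0.39 in Dnmt1-KO and 0.55 ± 0.38 in WT. In WT this was the lowest level of the 8 genes, at percentile 76.8, and in Dnmt1-KO it stood at percentile 99.1. Eed-KO exceeded WT by 0.26 ± 0.09, with 6 of 6 probes higher, below the size called. Of all promoters 3.79% had 6 of 6 probes higher in Eed-KO. The Dnmt1-KO level exceeded that of WT by 2.46 ± 0.14, with 6 of 6 probes higher, and rescaled by 1.19 ± 0.18, with 6 of 6 higher. The Ptch1 probe at 662 had the largest Dnmt1-KO value, with 1.12 in Eed-KO, 3.71 in Dnmt1-KO and 0.95 in WT.

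A second enriched stretch lay upstream of Ptch1, where the genotypes were close as measured. The 4 probes from -3300 to -2867 averaged 1.39 in Eed-KO, 1.32 in Dnmt1-KO and 1.29 in WT. At -3134 the levels were 1.60 in Eed-KO, 1.06 in Dnmt1-KO and 1.56 in WT, the highest WT value of the gene. This stretch was where Eed-KO and WT were most enriched, and the start of the gene was where Dnmt1-KO was. After rescaling the upstream stretch differed by -0.99 between Dnmt1-KO and WT. When windows were chosen again after rescaling, the Ptch1 window moved to the upstream stretch and its Dnmt1-KO difference was -0.75. The sign for Ptch1 therefore belongs to a position and a scale.

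Smo encodes the transducer that Ptch1 inhibits. The Smo window lay on chromosome 6 from 29685987 to 29686829, from 497 to 1287 bases inside the gene. The level was 0.79 ± 0.43 in Eed-KO, 1.48 ± 0.34 in Dnmt1-KO and 0.80 ± 0.24 in WT. Smo had the lowest Dnmt1-KO level of the 8 genes. Eed-KO differed from WT by -0.01 ± 0.09, with 2 of 6 probes higher. In Dnmt1-KO the level exceeded WT by 0.68 ± 0.18, with 6 of 6 probes higher, and rescaled the difference was -0.23 ± 0.18, with 2 of 6 higher.

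Hhip encodes a membrane protein that binds hedgehog ligands and limits their range. Its window lay on chromosome 8 from 82953023 to 82953959, from 131 to 1013 bases inside the gene. The level was 0.68 ± 0.36 in Eed-KO, 1.92 ± 0.11 in Dnmt1-KO and 0.74 ± 0.32 in WT. Eed-KO differed from WT by -0.06 ± 0.10, with 2 of 6 probes higher. Dnmt1-KO exceeded WT by 1.19 ± 0.15, with 6 of 6 probes higher, and rescaled by 0.14 ± 0.20, with 3 of 6 higher. The Dnmt1-KO signal at Hhip was even, between 1.78 and 2.05 over the 7 probes from 131 to 1127. Eed-KO ranged from 0.30 to 1.19 and WT from 0.41 to 1.26 over the same probes. Rescaled, the 7 Dnmt1-KO values lay between 1.12 and 1.29. That was inside the rescaled ranges of Eed-KO, 0.42 to 1.64, and of WT, 0.60 to 1.83.

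Gli1 encodes the activator whose own promoter responds to the pathway. The Gli1 window lay on chromosome 10 from 126742198 to 126743362, from 1188 to 2305 bases inside the gene. The level was 0.80 ± 0.24 in Eed-KO, 1.63 ± 0.96 in Dnmt1-KO and 0.61 ± 0.29 in WT. Eed-KO exceeded WT by 0.19 ± 0.09, with 5 of 6 probes higher. In Dnmt1-KO the level exceeded WT by 1.02 ± 0.38, with 5 of 6 probes higher, just past the size called, and rescaled by 0.19 ± 0.27, with 4 of 6 higher. The spread in Dnmt1-KO was uneven, because its level increased along the window up to the last probe of the gene at 2305, with 0.87 in Eed-KO, 3.11 in Dnmt1-KO and 0.98 in WT. No probe of Gli1 lies further in, so where that enrichment ended was not measured.

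Gli3 encodes the factor that acts mainly as a repressor when no ligand is present. Its window lay on chromosome 13 from 15254286 to 15255663, from -299 to 1024, and was the one window of the 8 that crossed the start. The level was 0.67 ± 0.38 in Eed-KO, 2.35 ± 0.70 in Dnmt1-KO and 0.65 ± 0.32 in WT. Eed-KO differed from WT by 0.03 ± 0.09, with 5 of 6 probes higher. Dnmt1-KO exceeded WT by 1.70 ± 0.29, with 6 of 6 probes higher, and rescaled by 0.61 ± 0.23, with 6 of 6 higher. The probes at -299 and -115 averaged 0.36 in Eed-KO, 3.06 in Dnmt1-KO and 0.48 in WT. Those at 810 and 1024 averaged 1.13 in Eed-KO, 2.45 in Dnmt1-KO and 0.99 in WT. As at Ihh and Ptch1, the Dnmt1-KO maximum of Gli3 thus did not fall on the probes where Eed-KO and WT were highest.

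**Figure D2:**
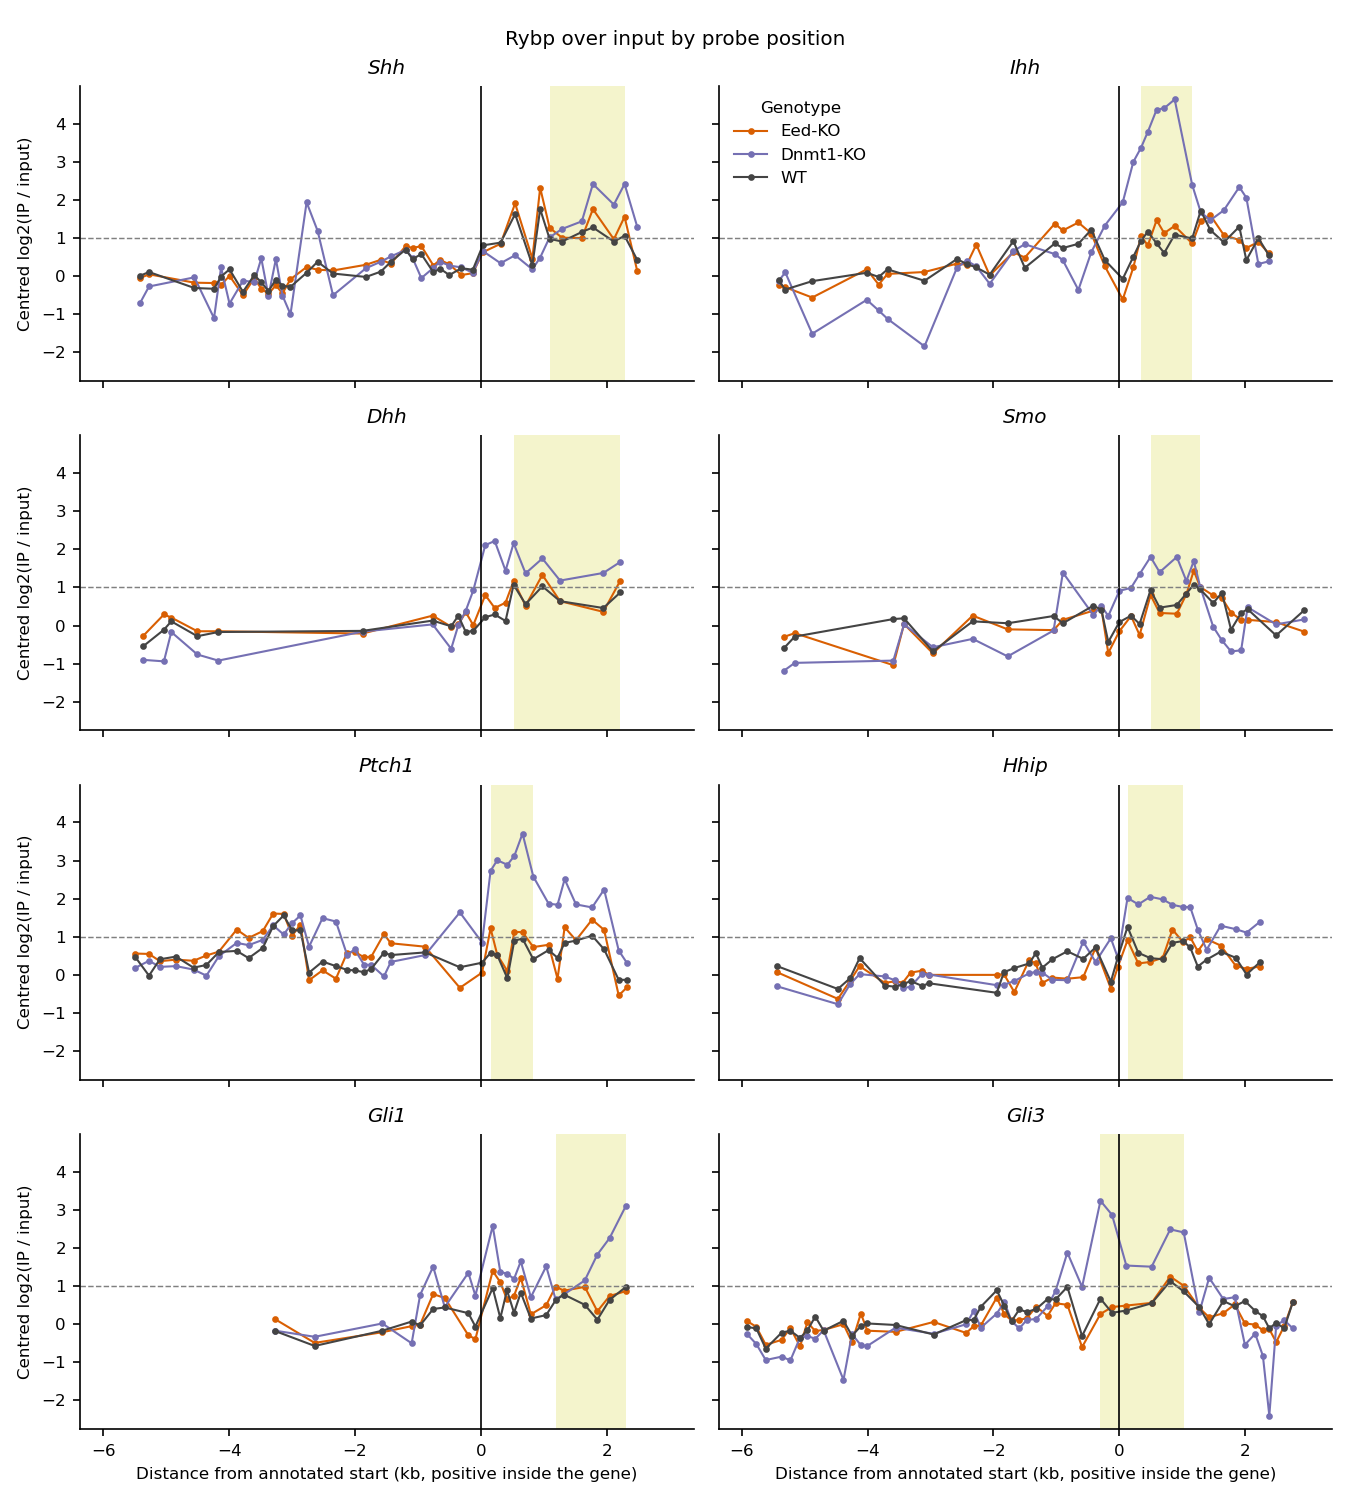
Centred log2 IP over input at every probe of each hedgehog gene against distance from the annotated start in kb, in Eed-KO, Dnmt1-KO and WT, 1 array per genotype, with the 6-probe window shaded. Eed-KO and WT follow each other, while Dnmt1-KO peaks inside Ihh at 4.64 and Ptch1 at 3.71 and lies below both at Shh from 313 to 942.

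Along the genes, Eed-KO and WT had closely similar profiles. Over the probes of 1 gene the correlation (Pearson's r) of Eed-KO with WT was lowest at Hhip, at 0.74 over 35 probes, and highest at Shh, at 0.95 over 39. Of Dnmt1-KO with WT it was lowest at Ptch1, at 0.35 over 40 probes, and highest at Dhh, at 0.76 over 20. Over all 262 probes r was 0.85 for Eed-KO and 0.59 for Dnmt1-KO, and over all 473310 probes of the arrays 0.73 and 0.52. Neighbouring probes share fragments, base composition and an array, so these are descriptions.

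Averaged over the 8 genes, levels were higher inside the genes than upstream in every genotype, although Ptch1 and Ihh also had the enriched upstream stretches described above. The 45 probes in the 1000 bases after the start averaged 0.74 ± 0.56 in Eed-KO, 2.00 ± 1.10 in Dnmt1-KO and 0.63 ± 0.42 in WT (SD over probes). The 35 probes in the 1000 bases before it averaged 0.26 ± 0.49 in Eed-KO, 0.71 ± 0.82 in Dnmt1-KO and 0.30 ± 0.37 in WT. Over all genes the same bins averaged 0.21 in Eed-KO, 0.69 in Dnmt1-KO and 0.25 in WT after the start, and 0.13 in Eed-KO, 0.49 in Dnmt1-KO and 0.18 in WT before it. From -6000 to -3000 the 66 hedgehog probes averaged 0.02 in Eed-KO, -0.31 in Dnmt1-KO and 0.00 in WT. Dnmt1-KO was higher than WT at 40 of 45 probes in the first 1000 bases of the genes and at 19 of 66 in this distal bin. The pattern over all genes ran the same way, with Dnmt1-KO higher at 70.0% of probes in the first 1000 bases and at 42.9% in the distal bin.

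**Figure D3:**
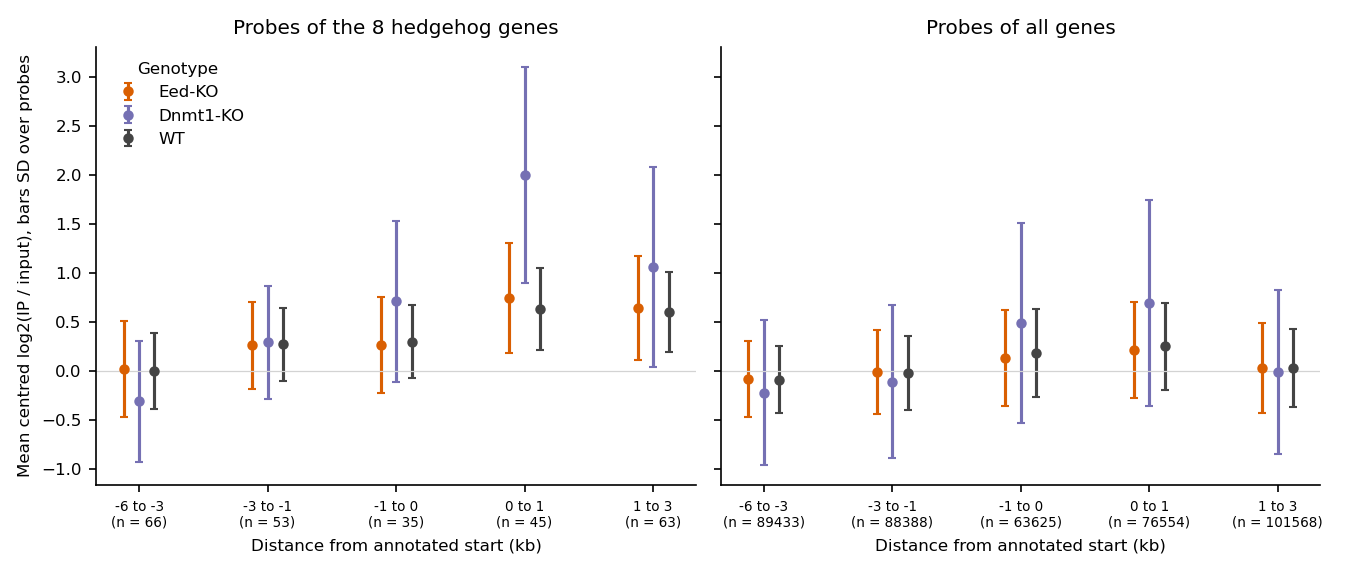
Mean centred log2 IP over input by distance from the annotated start in kb, for the probes of the 8 hedgehog genes (left) and of all genes (right), in Eed-KO, Dnmt1-KO and WT, with bars of 1 SD over probes and n the number of probes. In the first 1 kb inside the hedgehog genes the means are 0.74, 2.00 and 0.63 in that order of genotypes.

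Probe composition moved with the Dnmt1-KO levels. Over the 262 probes the correlation of level with GC content was 0.01 in Eed-KO, 0.45 in Dnmt1-KO and 0.11 in WT, and over all probes it was 0.25 in Eed-KO, 0.44 in Dnmt1-KO and 0.30 in WT. The Ihh window, with the highest Dnmt1-KO level, also held the most CpG, 6.30 per 100 bases. Smo was next with 4.10 and had the lowest Dnmt1-KO level, while Ptch1, second in Dnmt1-KO, held 3.11. The windows of the other 5 genes held 3.39 at Gli3, 2.61 at Gli1, 2.28 at Shh, 1.92 at Hhip and 0.98 at Dhh. With the trend on probe GC content removed from each array, 7 of the 8 genes were bound in Dnmt1-KO or WT. Of these 3 were called higher in Dnmt1-KO, against 42.0% of such promoters. The 3 were Ptch1 at 2.21, Ihh at 1.69 and Gli3 at 1.45.

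RefSeq promoters of 300 bases around the gene start in GRCm38.p6 were matched for 6 of the 8 genes, Ihh, Dhh, Ptch1, Smo, Hhip and Gli3. They held 30, 12, 47, 17, 30 and 39 CpG in that order, beside a median of 7 over 32851 promoters, with quartiles of 3 and 20. Each of them contains at least 1 array probe by exact match of the letters. The Gli3 and Ihh promoters are printed with CpG in capitals, since the Dnmt1-KO level was already high within the Gli3 promoter and still near the foot of the peak within that of Ihh.
Gli3 promoter, GRCm38.p6, chr13:15463473-15463772, plus strand: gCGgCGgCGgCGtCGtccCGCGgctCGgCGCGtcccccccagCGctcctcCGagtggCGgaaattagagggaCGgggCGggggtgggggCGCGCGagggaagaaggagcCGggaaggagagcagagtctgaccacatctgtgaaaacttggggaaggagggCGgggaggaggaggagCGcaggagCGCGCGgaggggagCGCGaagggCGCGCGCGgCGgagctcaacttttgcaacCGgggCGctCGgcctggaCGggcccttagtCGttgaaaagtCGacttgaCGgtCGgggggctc
Ihh promoter, GRCm38.p6, chr1:74951623-74951922, minus strand: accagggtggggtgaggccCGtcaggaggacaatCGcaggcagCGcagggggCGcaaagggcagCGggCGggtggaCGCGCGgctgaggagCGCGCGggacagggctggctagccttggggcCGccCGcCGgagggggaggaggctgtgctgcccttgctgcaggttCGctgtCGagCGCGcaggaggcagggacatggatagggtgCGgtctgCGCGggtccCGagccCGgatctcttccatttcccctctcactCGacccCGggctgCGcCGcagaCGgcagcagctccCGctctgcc
The probe in the Gli3 promoter, at -115, had 0.45 in Eed-KO, 2.87 in Dnmt1-KO and 0.30 in WT. The probe in the Ihh promoter, at -229, had 0.26 in Eed-KO, 1.33 in Dnmt1-KO and 0.42 in WT. The letters GACCACCCA, the consensus bound by Gli factors, were searched on both strands and found in 0 of the 6, where 0.25% of all promoters hold them. The E-box CACGTG was found in 0 of the 6, where 7.15% hold it, and the motifs do not overlap each other. No match says only that these letters are not in this window.

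Among the 8 genes, Ihh and Ptch1 had the highest Dnmt1-KO levels and the largest Dnmt1-KO differences. The median Eed-KO difference of the 8 genes was 0.13, beside -0.04 over all promoters, and 6 of 8 were above 0, where 40.7% of all promoters were. After rescaling it was 0.08 over the 8 genes, with 5 of 8 above 0, against 35.6% of all promoters. The median Dnmt1-KO difference of the 8 was 1.10, beside 0.61 over all promoters, and 8 of 8 were above 0, where 83.9% of all promoters were. After rescaling it was 0.17, beside 0.14 over all promoters, with 5 of 8 above 0, against 65.4%. The promoters closest to Ihh over the 3 levels, by Euclidean distance, were Htr6 at 0.12, Ntrk2 at 0.20 and Ext1 at 0.21. Htr6, a serotonin receptor gene, had 0.99 in Eed-KO, 3.85 in Dnmt1-KO and 0.96 in WT. Those closest to Shh were Foxa1 at 0.05, Lrat at 0.06 and Ppp1r27 at 0.07. Foxa1, a forkhead factor gene, had 1.27 in Eed-KO, 1.74 in Dnmt1-KO and 1.10 in WT.

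**Figure D4:**
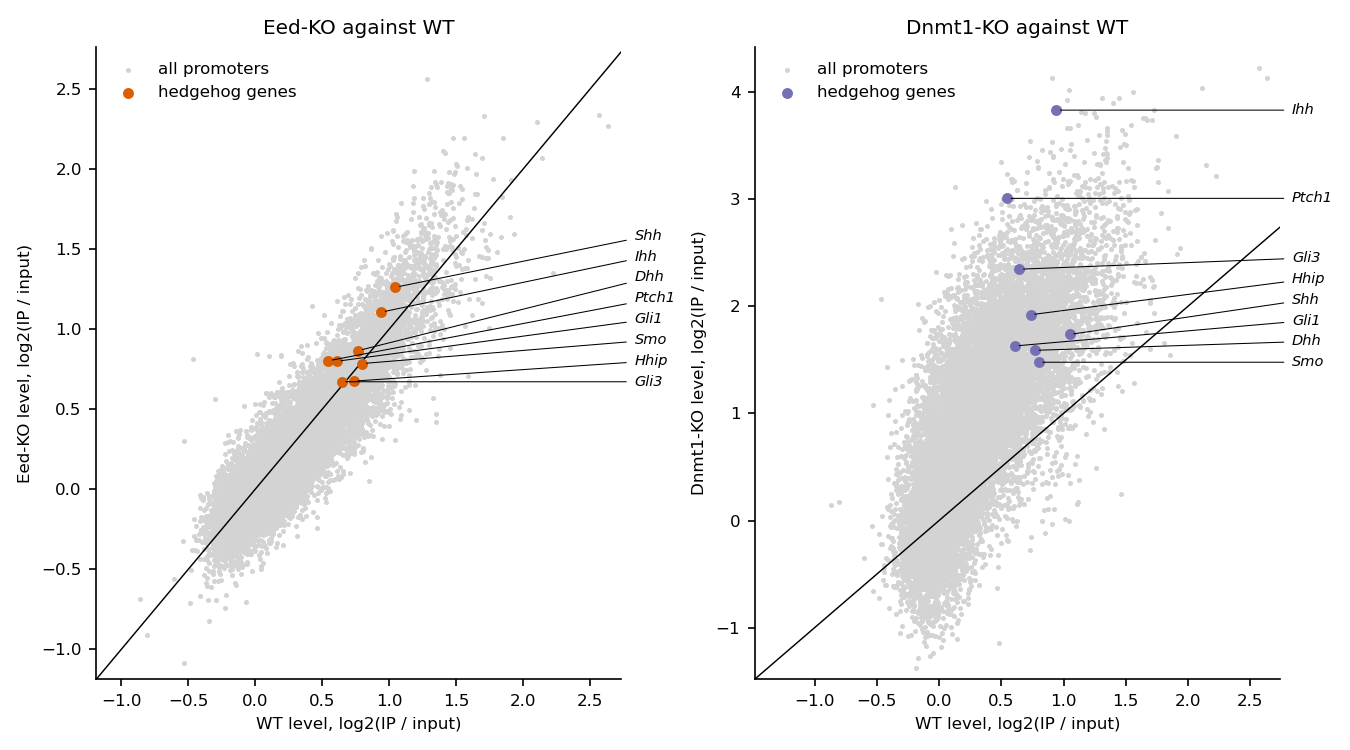
Window level (log2 IP over input) in Eed-KO (left) and Dnmt1-KO (right) against WT for 16328 promoters (grey) and the 8 hedgehog genes (coloured), with the line of equal levels. The hedgehog genes lie close to the line in Eed-KO and above it in Dnmt1-KO, with Ihh at 3.83 or more (1 probe saturated) and Ptch1 at 3.01.

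The other components of the pathway were mostly below the bound level in Eed-KO and WT. This list holds co-receptors, ligand processing proteins, kinases and cilium proteins, and 26 of its 30 genes had a window (Disp1, Gpr161, Kif7 and Lrp2 had none). In Eed-KO 1 of 26 was bound, in Dnmt1-KO 18 and in WT 0, against 5.76%, 46.1% and 5.15% of all promoters. The medians were 0.20 in Eed-KO, 1.17 in Dnmt1-KO and 0.33 in WT, beside 0.21, 0.92 and 0.27 over all promoters. Between Dnmt1-KO and WT 8 of the 18 bound in either were called higher, against 53.9% of such promoters, and 0 lower. After rescaling 1 of 8 bound in either was called higher, against 4.57%, and 0 lower. Gpc3, a glypican gene, had the highest WT level of the list, with 1.05 in Eed-KO, 2.00 in Dnmt1-KO and 0.99 in WT. Prkaca, the catalytic subunit of protein kinase A, which limits Gli activity, had the highest Dnmt1-KO difference, with 0.03 in Eed-KO, 1.97 in Dnmt1-KO and 0.14 in WT. Its difference was 1.83 ± 0.23 as measured and 1.04 rescaled. The lowest Dnmt1-KO difference among bound members was at Evc2, a cilium gene that aids Smo signalling, with 0.87 in Eed-KO, 1.28 in Dnmt1-KO and 0.85 in WT. Its difference was 0.43 ± 0.43 as measured and -0.43 rescaled, and that of Gpc3 was 1.01 ± 0.29 as measured and -0.10 rescaled.

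Genes known as hedgehog targets in mouse tissues were mostly bound in all 3 genotypes, and 27 of 28 had a window (Jag2 had none). In Eed-KO 22 of 27 were bound, in Dnmt1-KO 27 and in WT 17, against 5.76%, 46.1% and 5.15% of all promoters. The medians were 1.22 in Eed-KO, 2.23 in Dnmt1-KO and 1.08 in WT, beside 0.21, 0.92 and 0.27 over all promoters. Eed-KO exceeded WT at 22 of 27, against 40.7% of all promoters, with a median difference of 0.17, beside -0.04. After rescaling Eed-KO exceeded WT at 18 of 27, against 35.6% of all promoters, with a median difference of 0.10, beside -0.08. As measured, 22 of the list were bound in Eed-KO or WT. Of these 0 were called higher and 0 lower in Eed-KO, against 0.0880% and 0% of such promoters. Between Dnmt1-KO and WT 15 of the 27 were called higher, against 53.9% of promoters bound in either, and 0 lower. After rescaling 0 of 26 bound in either were called higher and 0 lower, against 4.57% and 1.84% of such promoters. The median rescaled difference of the 27 was -0.09, beside 0.14 over all promoters. The rescaled difference was above 0 at 13 of 27, against 65.4% of all promoters. Nkx3-2, a skeletal homeobox gene, had the highest WT level, with 2.01 in Eed-KO, 2.22 in Dnmt1-KO and 1.59 in WT. The Eed-KO difference was highest at Foxf1, a forkhead gene of gut mesenchyme, at 0.48 ± 0.08, and lowest at the cyclin gene Ccnd1, at -0.20 ± 0.16. The Dnmt1-KO difference was highest at Hoxd13, a gene of the distal limb, with 1.38 in Eed-KO, 3.22 in Dnmt1-KO and 1.08 in WT. It was lowest at Pthlh, a partner of Ihh in cartilage, with 1.30 in Eed-KO, 1.69 in Dnmt1-KO and 1.23 in WT. The Dnmt1-KO difference of Hoxd13 was 2.14 ± 0.34 as measured and 0.46 rescaled. Those of Pthlh and Nkx3-2 changed direction, with 0.46 ± 0.66 as measured and -0.73 rescaled at Pthlh, and 0.63 ± 0.20 as measured and -0.91 rescaled at Nkx3-2. Foxf1 had 0.60 ± 0.24 as measured and -0.70 rescaled, and Ccnd1 had 1.38 ± 0.27 as measured and -0.16 rescaled.

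Promoter occupancy does not measure expression, so the identity of the cells could not be checked against marker transcripts. Of 9 ES cell marker promoters with a window (Nanog had none), 2 were bound in Eed-KO, 6 in Dnmt1-KO and 1 in WT. Over all promoters 5.76%, 46.1% and 5.15% were bound, in that order. Tcl1 was highest in WT, with 1.40 in Eed-KO, 2.86 in Dnmt1-KO and 1.53 in WT. Among bound members Tcl1 also had the lowest Eed-KO difference, -0.13. Utf1 had the highest difference for each knockout, 0.18 in Eed-KO and 3.22 in Dnmt1-KO (1.28 rescaled). Pou5f1 had the lowest Dnmt1-KO difference, 0.28 (-0.39 rescaled). Of 12 fibroblast marker promoters 4 were bound in Eed-KO, 8 in Dnmt1-KO and 4 in WT, against the same shares of all promoters. Vim was highest in WT, at 1.27. Among bound members Pdgfra had the highest Eed-KO difference, 0.52, and Fbn1 the lowest, -0.19. Col1a2 had the highest Dnmt1-KO difference, 1.99 (0.56 rescaled), and Fbn1 the lowest, 0.42 (-0.67 rescaled). A share of feeder chromatin in any sample was not measured, and a mixed population and a uniform level of occupancy cannot be told apart on arrays of pooled cells.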

How the data were processed

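Rybp ChIP-chip was measured on 6 Agilent promoter arrays, 2 designs for each of Eed-KO, Dnmt1-KO and WT. Per the file headers, the deposited intensity of each spot is background-subtracted and dye-normalised. The submitters' processing notes name Agilent Feature Extraction 9.5.3.1, and the Dnmt1-KO headers name 10.1.1.1. The authors' value table holds log10 ratios, which matched the scanner ratios but for an offset common to each array (tolerance 0.001, met by 99.02% of probes or more) and served as an alternative. From the deposited intensities the log2 ratio of Cy5 over Cy3 was computed and centred on each array's median, without loess. Outlier spots (332 probes) were left out and saturated spots kept. Windows, bound levels and differences follow the fixed sizes given above, so there is no test. Symbols were updated through RefSeq accessions (16948 of 17601 matched). The window search was tested on simulated data. Python 3.11.15, pandas 2.3.3, R 4.3.3 and limma 3.58.1 (normexp) were used. The 9 genes and the lists were chosen with earlier results of these data known. All members are named, and of each further list the highest WT level and the highest and lowest difference for each knockout among bound members. Fixed alternatives numbered 13, and 1 was added after seeing the data.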

Additional observations from a re-analysis of the deposited data

How the results depend on the processing

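The count of hedgehog genes called higher or lower in Eed-KO than WT was 0 under all alternatives run. A call needs a promoter bound in Eed-KO or WT, and as measured 2 of the 8 genes were. With normexp background correction 1 gene was, and after rescaling 7 were. With the 6 probes nearest the start, with all probes of a gene and at 3-fold 0 were, so no call was possible. The other counts of genes bound or called moved. Shares over all promoters are given for the settings that have them. A count without such a share does not show how the 8 genes stood among all promoters. With normexp background correction 1 gene was bound in Eed-KO and 0 in WT. Under it 7 were called higher in Dnmt1-KO than WT, in place of 5, against 55.1% of promoters bound in either. With the arrays of a design set to 1 spread, 6 were bound in Eed-KO, 5 in Dnmt1-KO and 6 in WT. Of 16316 promoters 2004, 3241 and 2554 were bound, in that order. In Dnmt1-KO against WT 0 were called, where 144 of 4113 promoters bound in either were called higher and 112 lower. With the same scaling and the windows kept, an alternative chosen after seeing the data, 6 were bound in Eed-KO and 5 in WT. The shares of all promoters were 11.6% and 14.8%. In Dnmt1-KO 2 were called higher, against 4.57% of promoters bound in either. Removing the GC trend left 3 called higher in Dnmt1-KO, against 42.0% of promoters bound in either. With the scaling added 5 were bound in Eed-KO, 3 in Dnmt1-KO and 5 in WT, with 0 called. The 6 probes nearest the start gave 0 bound in Eed-KO and 0 in WT. Windows chosen on Eed-KO and WT gave 3 bound in WT and 2 called higher in Dnmt1-KO, the latter against 38.9% of promoters bound in either. All probes of a gene gave 0 bound in Eed-KO, 3 in Dnmt1-KO and 0 in WT, with 0 called. At a bound level of 1.5-fold 8 were bound in Eed-KO and 7 in WT, and at 3-fold 0 in Eed-KO and 0 in WT. The Ptch1 difference of Dnmt1-KO from WT reversed, at -0.75 with the scaling and -0.70 with the scaling and GC trend together, where the window moved upstream. Of the levels and differences of single genes, 339 were the same within 1 SD over probes, 139 moved and 2 reversed. Values counted as moved include changes of sign. With the scaling the Dnmt1-KO difference from WT was -0.81 at Shh, -0.23 at Smo and -0.06 at Dhh. With the scaling and GC trend together it was -0.80, -0.65 and -0.07 in that order. As measured it was 0.69, 0.68 and 0.82. The differences of Ihh, Hhip, Gli1 and Gli3 stayed positive in both forms. Part of the 339 was fixed in advance. Keeping outlier spots could move no value, since the 8 genes had 0 outlier probes, and the authors' value table holds nearly the same ratios. The windows also held 0 probes with dim input, and leaving such probes out changed no value. The limits are 1 array per genotype and promoter, input signal well above background at 88.09% and 85.8% of Dnmt1-KO probes (by a multiplier of 13, against 2.6 on the other arrays), and saturation at Ihh. No paired analysis was possible because each genotype had 1 array per design and no test was made.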
